A study of Mus musculus with 8 samples.

Results

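The genes of 9 transcription factors that define or oppose T helper cell fates were described in naive CD4 T cells and in effector Th1, Th2 and Th17 cells: *Tbx21*, *Eomes*, *Gata3*, *Rora*, *Foxp3*, *Bcl6*, *Maf*, *Ahr* and *Prdm1*. They were taken by symbol, as 9 of the 23284 genes in the RNA sequencing tables, and each had 1 row in every table. DO11.10 Tg mice, which carry a transgenic TCR for an OVA peptide, were the source of all cells, and each of the 4 groups had 2 libraries. Naive cells were sorted from the spleen as naive CD4 T cells and were not cultured. The effector cells were grown from such cells for 6 days with the OVA peptide on splenocytes that had been irradiated and depleted of T cells, so that a naive and an effector library differ in activation and culture as well as in subset. Under Th1 conditions the medium contained IL-12 (100 U/ml), IL-2 (30 U/ml) and an Ab against IL-4 (1 μg/ml). Under Th2 conditions it contained IL-4 (100 U/ml), IL-2 (30 U/ml) and an Ab against IFNγ (10 μg/ml). Under Th17 conditions it contained IL-1β, IL-6 and IL-23 (10 ng/ml each) with the Abs against IL-4 and IFNγ (10 μg/ml each), and no IL-2 was listed.

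A naive CD4 T cell adopts a helper fate when the TCR signal and the cytokines around it switch on a lineage-defining transcription factor. T-bet, encoded by *Tbx21*, directs the Th1 fate, GATA3 the Th2 fate, and the ROR receptors the Th17 fate, and these factors restrain one another. Foxp3 defines regulatory T cells, and BCL6 the follicular helper fate, in which it is opposed by BLIMP-1, the product of *Prdm1*. c-Maf and the ligand-sensing aryl hydrocarbon receptor AHR act across several subsets, where they are best known for the control of IL-10 and IL-22. Levels below are FPKM, the number of fragments of a gene scaled to its exon length and to the depth of the library. Differences are between group means of log2(FPKM + 1), a scale that understates changes of low values, and a gene was counted as higher or lower where the adjusted p-value of the limma fit over 11198 genes was under 0.05. The values of 8 of the 9 factor genes could be tested, since *Eomes* had a mean FPKM under 1 over the 8 libraries.

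The stretch of 250 bases before the transcription start is printed for 4 of the genes, *Tbx21* and *Gata3* as those with the widest differences between subsets on the log2(FPKM + 1) scale and *Bcl6* and *Prdm1* as an opposed pair, so that their upstream letters can be read beside the expression values. The sequences are from RefSeq on GRCm38.p6, read along the strand of the gene from 5′ to 3′, and capitals mark matches to any of 7 motifs searched on both strands. The motifs were TTCNNNGAA for STAT proteins, which carry cytokine signals to the nucleus, TGANTCA for AP-1, AGATAA for GATA factors, GGTGTGA for T-box factors, GCGTG for AHR, AGGTCA for ROR receptors and TATAAA for the TATA box. The *Tbx21* stretch is chr11:97115332-97115581, that of *Gata3* chr2:9878601-9878850, that of *Bcl6* chr16:23981284-23981533 and that of *Prdm1* chr10:44458749-44458998, all on the minus strand.
Tbx21: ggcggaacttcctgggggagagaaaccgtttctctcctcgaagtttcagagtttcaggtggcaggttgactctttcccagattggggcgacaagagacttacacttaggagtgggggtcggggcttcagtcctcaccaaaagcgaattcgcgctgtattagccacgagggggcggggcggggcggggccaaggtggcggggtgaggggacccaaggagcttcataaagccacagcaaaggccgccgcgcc
Gata3: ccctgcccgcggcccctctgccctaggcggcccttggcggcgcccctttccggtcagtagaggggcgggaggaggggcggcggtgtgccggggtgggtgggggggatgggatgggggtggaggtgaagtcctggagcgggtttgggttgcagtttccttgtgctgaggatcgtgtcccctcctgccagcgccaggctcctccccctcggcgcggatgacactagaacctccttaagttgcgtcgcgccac
Bcl6: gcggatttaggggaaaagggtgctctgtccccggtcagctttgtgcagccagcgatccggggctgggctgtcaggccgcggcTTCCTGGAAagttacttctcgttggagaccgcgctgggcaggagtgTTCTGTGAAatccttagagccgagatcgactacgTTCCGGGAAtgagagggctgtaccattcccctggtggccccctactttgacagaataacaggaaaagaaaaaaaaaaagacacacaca
Prdm1: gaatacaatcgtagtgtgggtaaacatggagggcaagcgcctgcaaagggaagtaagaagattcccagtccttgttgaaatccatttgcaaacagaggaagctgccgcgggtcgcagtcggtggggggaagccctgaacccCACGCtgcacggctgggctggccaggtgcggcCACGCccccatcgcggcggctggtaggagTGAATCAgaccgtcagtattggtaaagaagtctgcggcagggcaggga

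The *Tbx21* and *Gata3* stretches held no match to any of the motifs. The *Bcl6* stretch held 3 STAT matches, at 168, 122 and 88 bases before the start, whereas 7.02% of 32851 stretches of the same length held at least 1 and 9 stretches, or 0.0274%, held 3 or more. A further *Bcl6* start, upstream at chr16:23988853-23989102, had 1 STAT match at 118 bases. That stretch lies before the 5′ end of the *Bcl6* row at chr16:23965052-23988612, whereas the printed stretch lies inside the row. Of the 2, the one with more matches was printed, so the share of all stretches is no measure for *Bcl6* as a gene. The *Prdm1* stretch held an AP-1 match at 48 bases, a motif found in 6.75% of all stretches, and 2 matches to the AHR core, which 28.2% of stretches held. Among the other genes with an entry, *Eomes* had no match and *Rora* had 1 AHR core match. Of the 2 starts of *Foxp3*, the first had a TATA box at 32 bases and an AHR core match, and the other had 1 STAT, 1 GATA, 1 AHR core and 2 ROR matches. These matches describe letters and not binding. *Maf* and *Ahr* had no entry.

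The libraries carried the markers of their labels. The 8 CD4 T cell markers, among them the *Cd3* genes, *Cd4* and *Lck*, summed to between 1427 and 2265 FPKM in every library. The CD8 genes *Cd8a* and *Cd8b1* summed to 93.4 and 54.5 FPKM in the naive libraries and to between 8.94 and 13.0 in the others. The summed levels of 8 neutrophil and myeloid precursor genes were 8.67 to 9.52 in replicate 1 and 0.538 to 0.952 in replicate 2 of the effector groups. NK cell genes summed to 2601 and 2041 FPKM in Th2 libraries, where *Gzma* averaged 2321, and to at most 76.2 elsewhere. The Th2 sums were almost wholly *Gzma*, since *Ncr1*, *Klrb1c*, *Klra8* and *Klre1* each averaged at most 0.0781 FPKM there. Macrophage and monocyte genes summed to 34.6 and 30.7 in Th2 libraries and to at most 24.1 elsewhere. B cell genes summed to 12.9 and 11.8 in Th17 libraries and to at most 10.4 elsewhere. The part of other cells in these sums was not tested. The confidence intervals in the tables imply between 14463466 and 21058286 fragments a library, and the replicates of a group correlated with r between 0.953 and 0.960 across the tested genes, which are not independent replicates.

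**Figure D1:**
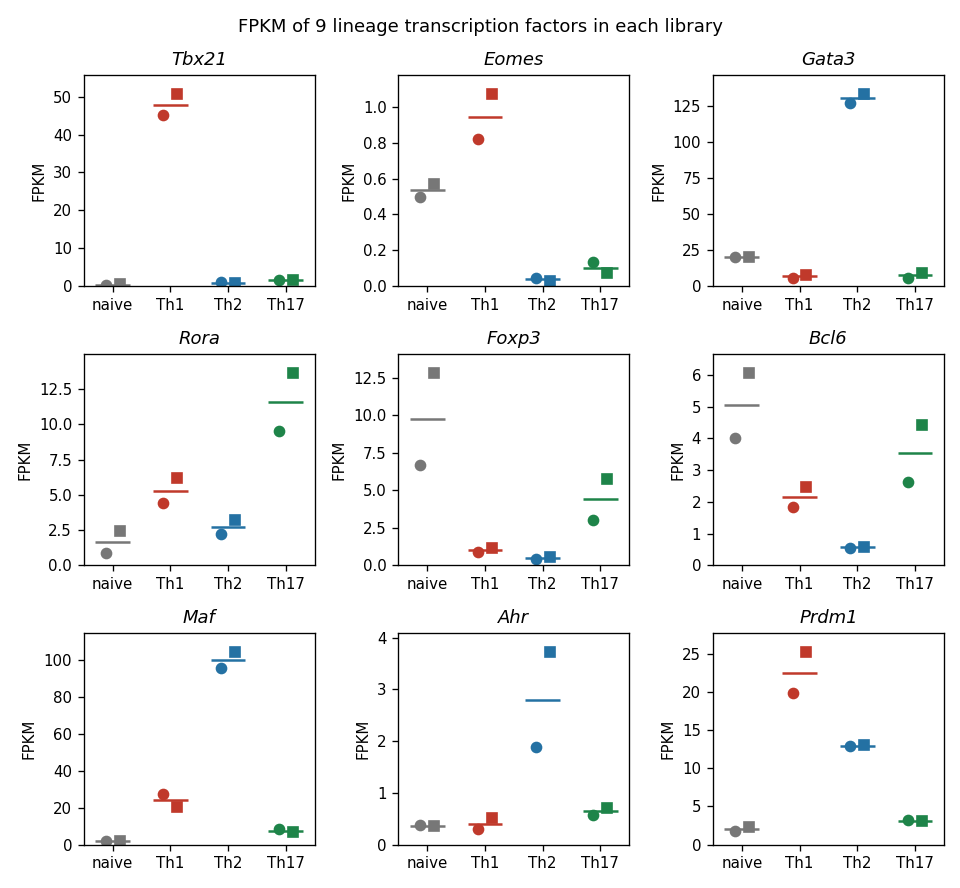
FPKM of each gene (vertical axis, its own scale in each panel) in naive, Th1, Th2 and Th17 cells, with circles for replicate 1, squares for replicate 2 and a bar at the mean. *Tbx21* stands at 45.1 and 50.7 in Th1 cells against at most 1.66 elsewhere, and *Gata3* and *Maf* are highest in Th2 cells.

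*Tbx21*, the gene for T-bet, was the most subset-restricted of the 9 by fold. It stood at 0.260 and 0.486 FPKM in naive cells, 45.1 and 50.7 in Th1 cells, 1.07 and 0.778 in Th2 cells and 1.62 and 1.66 in Th17 cells. No 2 groups overlapped, and the order was Th1, Th17, Th2, naive. The Th1 mean of 47.9 ± 3.94 FPKM (SD, n = 2) was 128-fold the naive mean, 51.8-fold the Th2 mean and 29.2-fold the Th17 mean. The differences were 5.16 (SE 0.13, limma adjusted p = 2.97e-07), 4.67 (SE 0.13, adjusted p = 2.23e-06) and 4.21 (SE 0.13, adjusted p = 5.12e-06). In these bulk samples, fewer cells that express a gene and less of its RNA in each cell cannot be told apart. The mean of *Tbx21* outside Th1 cells was 0.980 FPKM, so it passed the filter on low values only through the Th1 libraries. *Tbx21* lies at chr11:97098007-97115331 on the minus strand, with no annotated gene overlapping it.

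The low levels of *Tbx21* outside Th1 cells also differed. Th17 cells were 0.95 above naive cells (adjusted p = 0.00055). Th2 cells were 0.49 above naive cells (adjusted p = 0.0121), a call that was lost with quantile normalization (0.16, adjusted p = 0.316) and without replicate 1 of naive (adjusted p = 0.0627) or of Th2 (adjusted p = 0.0667). The difference of 0.46 between Th17 and Th2 cells (adjusted p = 0.027) did not pass with median scaling (adjusted p = 0.0602), quantile normalization (0.23, adjusted p = 0.204) or voom (0.79, adjusted p = 0.0577), nor without Th2 replicate 2 (adjusted p = 0.134), Th17 replicate 1 (adjusted p = 0.0881) or Th17 replicate 2 (adjusted p = 0.111). In naive cells the values rest on 14 and 26 implied fragments.

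*Eomes*, the T-box relative of *Tbx21* that is best known from CD8 T cells and NK cells, was low throughout. Its levels were 0.497 and 0.572 FPKM in naive cells, 0.819 and 1.07 in Th1 cells, 0.0474 and 0.0288 in Th2 cells and 0.132 and 0.0720 in Th17 cells. The groups did not overlap, with Th1 above naive and naive above Th17 and Th2. Without the filter on low values, Th1 cells were 0.34 above naive cells (SE 0.07, adjusted p = 0.00852), and Th2 and Th17 cells were below them, with differences of -0.56 (adjusted p = 0.000989) and -0.48 (adjusted p = 0.00201). Th1 cells were 0.90 above Th2 cells (adjusted p = 0.000458) and 0.82 above Th17 cells (adjusted p = 0.00093) in the same fit, and Th17 and Th2 cells differed by 0.09 (adjusted p = 0.404). The naive libraries had 38.3 and 43.6 implied fragments of *Eomes*. These cells were sorted for CD4, and their *Cd8a* was at 2.94 and 1.77 FPKM and *Cd8b1* at 90.5 and 52.8, against at most 0.268 and 12.9 in the effector libraries. The part of CD8 cells in the *Eomes* level was not tested. Within a Th1 library, *Tbx21* was 55.1 and 47.3 times as high as *Eomes*, whereas in naive libraries the ratio was 0.523 and 0.850. *Eomes* lies at chr9:118478189-118486132 on the plus strand.

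*Gata3*, the gene of the Th2 factor, was already present in naive cells and moved both ways. Its levels were 20.2 and 20.4 FPKM in naive cells, 127 and 133 in Th2 cells, 5.46 and 7.95 in Th1 cells and 5.83 and 9.19 in Th17 cells. Th2 cells stood above naive cells and naive cells above the other subsets, while Th1 and Th17 cells overlapped. Th2 cells rose 6.40-fold over naive cells (2.62, SE 0.22, adjusted p = 4.04e-05). Th1 cells fell by 1.49 (SE 0.22, adjusted p = 0.000793) and Th17 cells differed from naive cells by -1.35 (adjusted p = 0.00122). The Th2 mean of 130.0 ± 4.22 FPKM (SD, n = 2) was 19.4-fold that of Th1 cells (Th1 minus Th2 -4.11, adjusted p = 2e-05) and 17.3-fold that of Th17 cells (-3.97, adjusted p = 3.98e-05). Th1 and Th17 cells differed by -0.13 (adjusted p = 0.721). *Gata3* lies at chr2:9857078-9878600 on the minus strand, and the gene 9230102O04Rik, whose exons overlap it, was at 3.49 FPKM in Th2 cells and at most 0.252 in the means of the other groups.

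*Rora*, the gene of the ROR receptor RORα, which acts in Th17 cells, had its highest values there. It stood at 0.909 and 2.41 FPKM in naive cells, 4.40 and 6.17 in Th1 cells, 2.25 and 3.23 in Th2 cells and 9.56 and 13.6 in Th17 cells. Only the naive and Th2 groups overlapped. Th17 cells were 6.99-fold above naive cells (2.29, SE 0.31, adjusted p = 0.000549) and 4.23-fold above Th2 cells (1.75, SE 0.31, adjusted p = 0.00494). Th1 cells were 3.19-fold above naive cells (1.29, adjusted p = 0.00876), a call lost without Th1 replicate 2 (1.08, adjusted p = 0.0561). Replicate 2 exceeded replicate 1 in every group, and 3 comparisons that missed the threshold passed it once the replicate number was a block in the fit. Some did so in other fits too. The comparisons were Th2 against naive (0.54, adjusted p = 0.16, with the block 0.00923), Th1 against Th2 (0.75, adjusted p = 0.093, with the block 0.00453) and Th1 against Th17 (-0.998, adjusted p = 0.0579, with the block 0.00246). Without naive replicate 2, the Th2 difference from naive was 0.96 (adjusted p = 0.0279). Th1 against Th2 also passed in a fit of these groups alone (adjusted p = 0.0444) and without naive replicate 1 (adjusted p = 0.0452) or 2 (adjusted p = 0.0455). Th1 against Th17 also passed with voom (adjusted p = 0.0431) and without naive replicate 1 (adjusted p = 0.0294) or 2 (adjusted p = 0.0297). *Rora* spans chr9:68653802-69379028 on the plus strand.

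*Foxp3*, the regulatory T cell factor, was highest in the naive libraries. It stood at 6.68 and 12.8 FPKM in naive cells, 0.874 and 1.13 in Th1 cells, 0.423 and 0.541 in Th2 cells and 3.03 and 5.76 in Th17 cells. No groups overlapped, in the order naive, Th17, Th1, Th2. *Foxp3* fell by 2.37 in Th1 cells (SE 0.32, adjusted p = 0.000576) and by 2.80 in Th2 cells (SE 0.32, adjusted p = 0.00022). In Th17 cells it was 2.22-fold below naive cells (-0.98, adjusted p = 0.031) and 9.12-fold above Th2 cells (1.82, adjusted p = 0.0049).

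The call of lower *Foxp3* in Th17 than in naive cells was lost with no filter on low values (adjusted p = 0.0615), in a fit of these 2 groups alone (adjusted p = 0.0909), without naive replicate 2 (-0.56, adjusted p = 0.16), without Th17 replicate 1 (-0.61, adjusted p = 0.175) and without either Th2 library (adjusted p = 0.0568 each). Th1 cells were below Th17 cells, with a difference of -1.39 (adjusted p = 0.0214), which voom (adjusted p = 0.174) and the fits without Th1 replicate 1 (adjusted p = 0.109), Th1 replicate 2 (adjusted p = 0.0778) or Th17 replicate 2 (adjusted p = 0.117) did not call. Th1 and Th2 cells differed by 0.43 (adjusted p = 0.319), and by the same amount with an adjusted p of 0.0243 in a fit of these groups alone. *Foxp3* lies at chrX:7579676-7595243 on the plus strand, and 23.1% of its 50-base words also occur in 4 other annotated genes, among them *Ccdc22* and *Ppp1r3f* on the opposite strand. Their means were 16.6, 6.16, 9.21 and 9.08 FPKM for *Ccdc22* and 7.06, 1.06, 2.47 and 2.36 for *Ppp1r3f* in naive, Th1, Th2 and Th17 cells. Both were thus highest in naive cells as *Foxp3* was, while their Th2 and Th17 means lay close together. The sources disagree on whether the libraries keep strand, and the part of shared reads in the *Foxp3* values was not tested.

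*Bcl6*, the gene of the repressor that directs the follicular helper fate, had levels of 4.02 and 6.05 FPKM in naive cells, 1.84 and 2.46 in Th1 cells, 0.552 and 0.593 in Th2 cells and 2.64 and 4.44 in Th17 cells. Naive and Th17 cells overlapped, and Th2 cells were the lowest. *Bcl6* fell by 1.92 from naive to Th2 cells (SE 0.24, adjusted p = 0.000307), an 8.80-fold lower mean, and Th17 cells were 6.18-fold above Th2 cells (1.50, adjusted p = 0.00306). It fell by 0.93 in Th1 cells (adjusted p = 0.0113), which did not hold without naive replicate 2 (adjusted p = 0.0643) or Th1 replicate 1 (adjusted p = 0.0668). Th1 cells were 1.00 above Th2 cells (adjusted p = 0.0142), which did not hold without Th1 replicate 2 (adjusted p = 0.085), Th2 replicate 1 (adjusted p = 0.0629) or Th2 replicate 2 (adjusted p = 0.0692).

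In Th17 cells *Bcl6* differed from naive cells by -0.42 (adjusted p = 0.155) and the Th1 minus Th17 difference was -0.50 (adjusted p = 0.179). With the replicate block the adjusted p-values of these differences were 0.0403 and 0.0446. The difference from naive cells was -0.71 both with quantile normalization (adjusted p = 0.0288) and without Th17 replicate 2 (adjusted p = 0.0447). *Bcl6* lies at chr16:23965052-23988612 on the minus strand, and the exons of the annotated gene *Gm37419*, on the plus strand, overlap it.

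*Prdm1*, the gene for BLIMP-1, a repressor linked to effector and IL-10-producing T cells, was lowest in naive cells, where *Bcl6* was highest. It stood at 1.78 and 2.28 FPKM in naive cells, 19.8 and 25.2 in Th1 cells, 12.9 and 13.0 in Th2 cells and 3.17 and 3.12 in Th17 cells. No groups overlapped. *Prdm1* rose 11.1-fold in Th1 cells (2.95, SE 0.13, adjusted p = 2.84e-06) and 6.37-fold in Th2 cells (2.21, adjusted p = 9.18e-06). Th1 cells were 0.74 above Th2 cells (adjusted p = 0.00481) and 2.49 above Th17 cells (adjusted p = 4.17e-05), and Th17 cells were 4.12-fold below Th2 cells (-1.75, adjusted p = 0.000165).

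The difference of 0.45 in *Prdm1* between Th17 and naive cells (adjusted p = 0.0204) turned to -0.0455 with quantile normalization (adjusted p = 0.738), and was not called without naive replicate 1 (0.34, adjusted p = 0.108), Th17 replicate 1 (adjusted p = 0.0851) or Th17 replicate 2 (adjusted p = 0.0767). Within a library, *Bcl6* was 2.25 and 2.65 times *Prdm1* in naive cells and 0.832 and 1.42 times *Prdm1* in Th17 cells. The ratio was 0.0927 and 0.0979 in Th1 cells and 0.0429 and 0.0455 in Th2 cells, so that Th17 cells lay between naive cells and the other subsets. *Prdm1* lies at chr10:44437175-44458687 on the minus strand, with no exon of another annotated gene over its own.

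*Maf*, the gene for c-Maf, was among the 3 most abundant of the 9 in every effector library. Its levels were 1.94 and 1.99 FPKM in naive cells, 27.5 and 20.5 in Th1 cells, 95.5 and 104 in Th2 cells and 8.61 and 6.54 in Th17 cells. No groups overlapped, in the order Th2, Th1, Th17, naive. *Maf* rose 50.8-fold in Th2 cells (5.09, SE 0.17, adjusted p = 5.62e-07), 12.2-fold in Th1 cells (3.06, adjusted p = 6.34e-06) and 3.85-fold in Th17 cells (1.52, adjusted p = 0.00018). Th2 cells were 4.16-fold above Th1 cells (Th1 minus Th2 -2.02, adjusted p = 0.000136) and 13.2-fold above Th17 cells (-3.56, adjusted p = 1.94e-05), and Th1 cells were 3.17-fold above Th17 cells (1.54, adjusted p = 0.00081). Its row covers chr8:115703253-115706894 on the minus strand.

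*Ahr*, the gene of the aryl hydrocarbon receptor, was low and had its highest values in Th2 cells. It stood at 0.371 and 0.365 FPKM in naive cells, 0.307 and 0.504 in Th1 cells, 1.89 and 3.72 in Th2 cells and 0.574 and 0.713 in Th17 cells. Th1 and naive cells overlapped, and both Th2 libraries exceeded all others. Th2 cells were 7.61-fold above naive cells (1.43, SE 0.23, adjusted p = 0.00107), 6.90-fold above Th1 cells (Th1 minus Th2 -1.40, adjusted p = 0.00296) and 4.35-fold above Th17 cells (-1.17, adjusted p = 0.00681). The mean of *Ahr* was 1.05 FPKM over the 8 libraries and 0.472 without Th2 cells, so it passed the filter on low values only through the group where it was high. Th17 cells differed from naive cells by 0.26 (adjusted p = 0.334, and 0.0324 in a fit of these groups alone), Th1 from naive cells by 0.04 (adjusted p = 0.902) and Th1 from Th17 cells by -0.23 (adjusted p = 0.531). *Ahr* lies at chr12:35497979-35534989 on the minus strand.

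**Figure D2:**
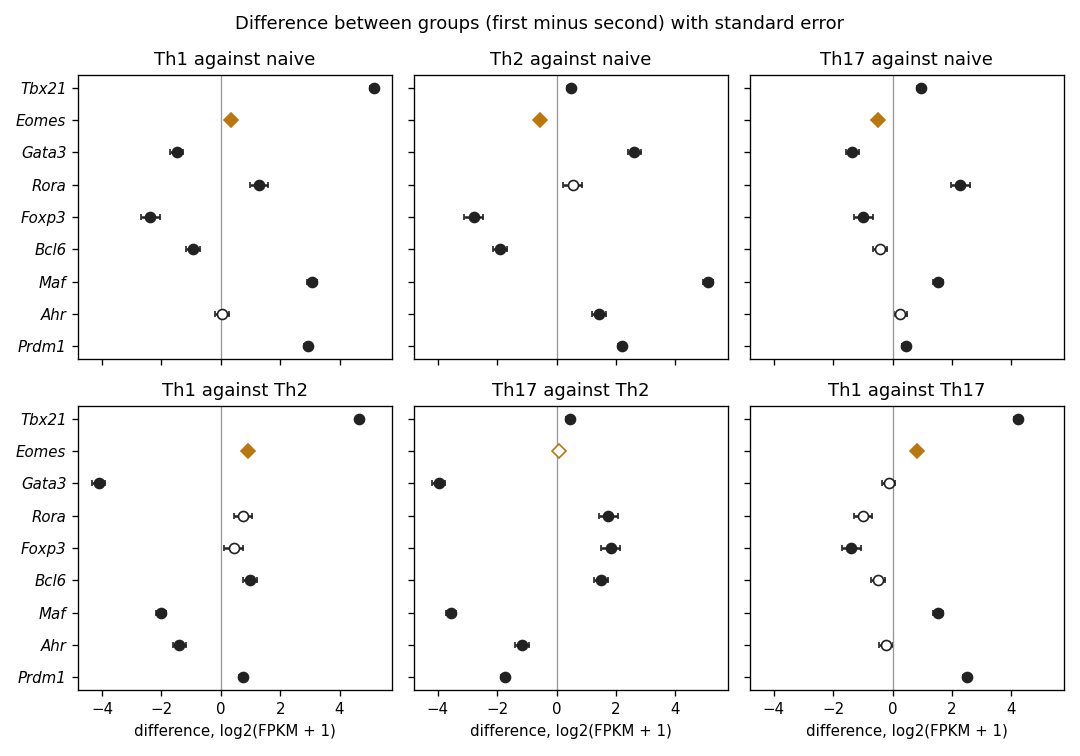
Difference between group means of log2(FPKM + 1), the group named first minus the other, with its standard error, for each gene in 6 comparisons. Circles are the fit over 11198 genes, diamonds show *Eomes* in the fit with no filter, and filled symbols have an adjusted p-value under 0.05, as 8 of 8 tested genes have for Th17 against Th2 cells. Of these, *Ahr* passed the filter on low values only through the Th2 libraries.

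Against naive cells, 7 of the 8 tested genes passed the threshold in Th1 cells, beside 67.3% of all genes tested. The 4 higher genes were *Tbx21*, *Rora*, *Maf* and *Prdm1*, beside 33.8% of all genes, and the 3 lower ones *Gata3*, *Foxp3* and *Bcl6*, beside 33.5%. In Th2 cells 7 of 8 passed, beside 70.5% of all genes, with *Tbx21*, *Gata3*, *Maf*, *Ahr* and *Prdm1* higher (all genes 31.8%) and *Foxp3* and *Bcl6* lower (38.7%). In Th17 cells 6 of 8 passed, beside 67.3%, with *Tbx21*, *Rora*, *Maf* and *Prdm1* higher (37.5%) and *Gata3* and *Foxp3* lower (29.8%). *Tbx21*, *Maf* and *Prdm1* were thus called higher, and *Foxp3* lower, in each of these 3 comparisons, which share the naive libraries. Between subsets, 6 of 8 passed for Th1 against Th2 cells, beside 44.3% of all genes, with *Tbx21*, *Bcl6* and *Prdm1* higher (27.4%) and *Gata3*, *Maf* and *Ahr* lower (16.9%). For Th17 against Th2 cells 8 of 8 passed, beside 43.6%, with *Tbx21*, *Rora*, *Foxp3* and *Bcl6* higher (31.7%) and *Gata3*, *Maf*, *Ahr* and *Prdm1* lower (12%). For Th1 against Th17 cells 4 of 8 passed, beside 25.1%, with *Tbx21*, *Maf* and *Prdm1* higher (9.17%) and *Foxp3* lower (16%) in Th1 cells. These counts include *Tbx21* and *Ahr*, which passed the filter on low values only through the Th1 and the Th2 libraries, respectively. Their calls in comparisons with those groups are a description. The split of all called genes depended on the scaling. With median scaling 38.1% of genes were higher and 31.1% lower for Th2 against naive cells, 21.2% and 21.2% for Th1 against Th2, 19.8% and 19.0% for Th17 against Th2, and 11.7% and 13.0% for Th1 against Th17. With quantile normalization the last 3 were 21.8% and 20.6%, 20.2% and 19.2%, and 12% and 12.2%. The replicate 2 library was the higher one in all 4 groups for *Gata3*, *Rora*, *Foxp3* and *Bcl6*, that is for 4 of 8 tested genes beside 20.2% of all genes, and the myeloid precursor genes differed between the same replicates of the effector groups, a relation that was not tested.

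**Figure D3:**
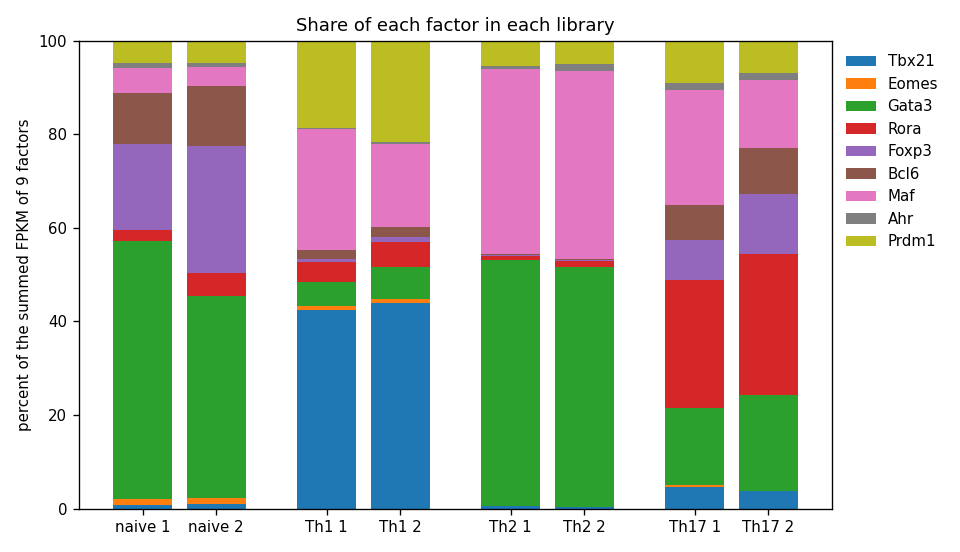
Share of each gene in the summed FPKM of the 9 genes (vertical axis, percent) in each of the 8 libraries. *Gata3* takes 55.1% and 43.1% in naive and 52.6% and 51.3% in Th2 libraries, *Tbx21* 42.5% and 43.8% in Th1 libraries, and no gene exceeds 30.2% in Th17 libraries.

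Shares of the summed level of the 9 genes can be given because FPKM is scaled to gene length. *Gata3* had the largest share in naive and Th2 libraries, *Tbx21* in Th1 libraries and *Rora* in Th17 libraries. In naive libraries *Gata3* made up 55.1% and 43.1%, *Foxp3* 18.2% and 27.0% and *Bcl6* 11.0% and 12.8%. In Th1 libraries *Tbx21* made up 42.5% and 43.8%, *Maf* 25.9% and 17.7% and *Prdm1* 18.7% and 21.8%. Th2 libraries were taken up almost wholly by *Gata3*, at 52.6% and 51.3%, and *Maf*, at 39.5% and 40.2%. Th17 libraries had the most even mixture, with *Rora* at 27.2% and 30.2%, *Maf* at 24.5% and 14.5%, and *Gata3* at 16.6% and 20.4%. The summed level was 36.7 and 47.4 FPKM in naive libraries and 106 and 116 in Th1 libraries. It reached 242 and 259 in Th2 libraries and stayed at 35.2 and 45.1 in Th17 libraries, so that the Th17 sum overlapped that of naive cells.

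**Figure D4:**
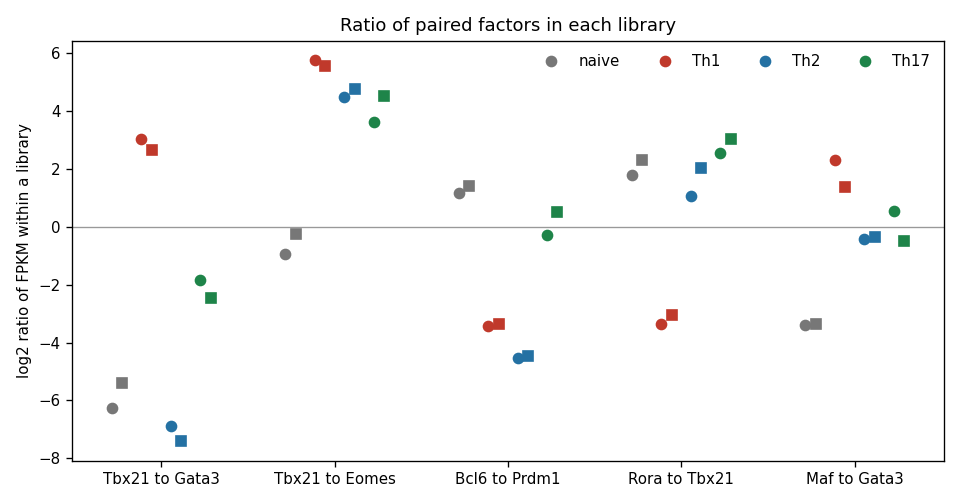
Log2 ratio of FPKM (vertical axis) of 5 pairs of genes within each library, circles for replicate 1 and squares for replicate 2. *Tbx21* exceeds *Gata3* in the Th1 libraries and in no other.

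Ratios within a library do not depend on the scaling between libraries. *Tbx21* was 8.26 and 6.37 times *Gata3* in Th1 libraries, 0.279 and 0.180 times in Th17 libraries, 0.0129 and 0.0238 times in naive libraries and 0.00845 and 0.00585 times in Th2 libraries. The groups followed the order Th1, Th17, naive, Th2 without overlap. *Rora* was 5.89 and 8.22 times *Tbx21* in Th17 libraries and 0.0976 and 0.122 times in Th1 libraries, but it also exceeded *Tbx21* in naive libraries, at 3.50 and 4.95 times, and in Th2 libraries, at 2.10 and 4.15 times. *Maf* was 5.03 and 2.58 times *Gata3* in Th1 libraries, 1.48 and 0.712 times in Th17, 0.752 and 0.783 times in Th2 and 0.0962 and 0.0974 times in naive libraries.

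**Figure D5:**
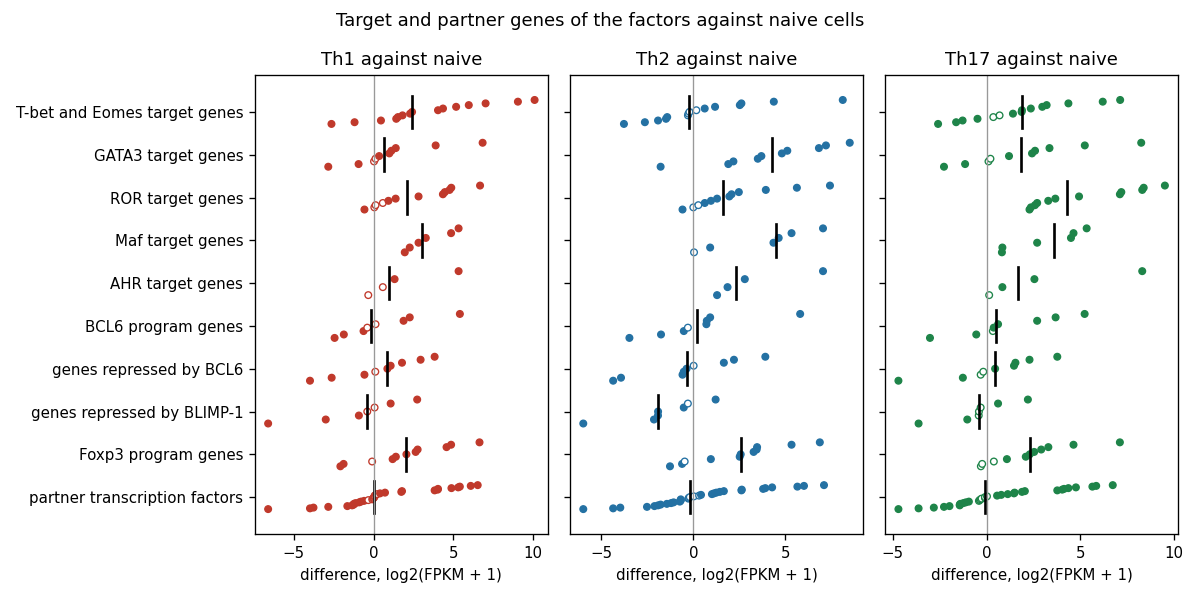
Difference from naive cells on the log2(FPKM + 1) scale (horizontal axis) for genes of each list in Th1, Th2 and Th17 cells. Filled points have an adjusted p-value under 0.05 and black bars mark the median of a list, as at 4.25 for GATA3 target genes in Th2 cells.

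Genes known as targets of T-bet and Eomes were then set beside *Tbx21* and *Eomes*. Of 15 tested of 16, of which 2 passed the filter on low values only through the Th1 libraries, 13 were higher and 2 lower in Th1 than in naive cells, with a median difference of 2.41 beside -0.01 over all genes. Of all genes, 33.8% were higher and 33.5% lower. Against Th2 cells 13 were higher and 1 lower (median 2.65, all genes 0.11), and against Th17 cells 9 were higher and 3 lower (median 0.83, all genes -0.08). The shares of all genes were 27.4% higher and 16.9% lower against Th2 cells, and 9.17% and 16% against Th17 cells. *Ifng*, the defining Th1 cytokine, averaged 708 ± 133 FPKM (SD, n = 2) in Th1 cells and at most 1.31 in the means of the other groups, 9.35 above Th2 cells (adjusted p = 5.35e-06) and 8.36 above Th17 cells (adjusted p = 1.72e-05). The cytotoxic granule gene *Nkg7* averaged 110 FPKM in Th1 cells and at most 2.90 elsewhere, and the homing receptor *Cxcr6* 90.9 in Th1 cells and at most 7.84 elsewhere. *Il18r1*, a chain of the IL-18 receptor, was 6.18 above Th2 cells in Th1 cells (adjusted p = 1.06e-06). The genes lower in Th1 than in naive cells were *Crtam*, at 5.47 in naive and 0.0304 FPKM in Th1 cells, and *Prf1*, the gene of perforin, at 16.6 and 6.67 FPKM. Both are expressed by CD8 T cells, whose markers were higher in the naive libraries, and the part of such cells was not tested.

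The list was not silent in the other subsets. *Gzmb*, the gene of granzyme B, averaged 1714 FPKM in Th1 cells, 442 in Th2 cells and 219 in Th17 cells against 0.597 in naive cells. *Il12rb2*, the IL-12 receptor chain, was 7.03 above naive cells in Th1, 6.20 in Th17 (adjusted p = 2.94e-07) and 4.37 in Th2 cells (adjusted p = 9.43e-07). *Cxcr3* stood at 8.68 FPKM in Th1, 11.4 in Th17 and 0.199 in Th2 cells, 3.37 higher in Th17 than in Th2 cells (adjusted p = 0.000114).

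Of the GATA3 targets, 10 of 11 were tested, and 9 were higher and 1 lower in Th2 than in naive cells (median 4.25, all genes -0.11). The shares of all genes were 31.8% higher and 38.7% lower. All 10 were lower in Th1 than in Th2 cells (median -2.19, all genes 0.11), beside 16.9% of all genes. In Th17 cells 7 were lower than in Th2 cells (median -1.67, all genes 0.18), beside 12% of all genes, while 3 did not pass. Of the 10, 2 passed the filter on low values only through the Th2 libraries, *Epas1* among them, so these counts are a description. The cytokine gene *Il13* averaged 147 ± 5.16 FPKM (SD, n = 2) in Th2, 9.54 in Th17 and 0.0828 in Th1 cells and was listed at 0 in both naive libraries. *Epas1*, the gene of the hypoxia-inducible factor HIF-2α, averaged 77.6 FPKM in Th2 cells and at most 1.81 elsewhere, and Th1 and Th17 cells differed from Th2 cells by -5.75 (adjusted p = 2.62e-06) and -5.96 (adjusted p = 4.5e-06). *Il24* and the chemokine receptor gene *Ccr4* were at 396 and 79.4 FPKM in Th2 cells but also at 334 and 87.5 in Th17 cells, where *Gata3* itself was at 7.51. The gene that fell in Th2 cells was *Zfpm1*, which encodes the GATA cofactor FOG-1, from 14.3 to 3.47 FPKM.

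The 12 ROR targets were all higher in Th17 than in naive cells, with a median of 4.30 beside 0.08 over all genes, but 5 of them passed the filter on low values only through the Th17 libraries. Of all genes, 37.5% were higher. Against Th2 cells 8 were higher and 1 lower in Th17 cells (median 1.73, all genes 0.18), beside 31.7% and 12% of all genes. Against Th1 cells 8 were higher and 3 lower in Th17 cells, beside 16% and 9.17% of all genes. The median of Th1 minus Th17 was -2.75, and -0.08 over all genes. The Th17 cytokine gene *Il17f* averaged 996 ± 23.9 FPKM (SD, n = 2) in Th17 cells and at most 0.675 elsewhere, 9.25 above Th2 cells (adjusted p = 5.29e-06). *Il22* averaged 329 ± 129 FPKM in Th17 cells and at most 1.46 elsewhere, and *Il23r*, the IL-23 receptor gene, 29.6 in Th17 cells, 1.61 in Th1 cells and 0 as listed in the other groups. The leukotriene receptor gene *Ltb4r1* was shared more widely, at 161 FPKM in Th17, 113 in Th1 and 54.6 in Th2 cells against 0.111 in naive cells. *Il1r2*, a decoy receptor for IL-1, averaged 180 FPKM in Th2 cells and 147 in Th17 cells.

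Of the Maf targets, 6 of 8 were tested, and 6, 5 and 6 were higher than in naive cells in Th1, Th2 and Th17 cells, with none lower (medians 3.04, 4.50 and 3.60, where those of all genes were -0.01, -0.11 and 0.08). The shares of all genes were 33.8%, 31.8% and 37.5% higher and 33.5%, 38.7% and 29.8% lower. *Il10* followed the order of *Maf* across the subsets, at 138 ± 30.8 FPKM in Th2, 40.9 ± 3.95 in Th1 and 0.864 ± 0.0524 in Th17 cells (SD, n = 2 each), and Th17 cells differed from Th2 cells by -6.20 (adjusted p = 3.08e-06). *Il21*, a cytokine of follicular helper and Th17 cells, did not, at 41.7 FPKM in Th17, 20.6 in Th2 and 6.48 in Th1 cells. *Ctla4* was at 298, 214 and 183 FPKM in Th2, Th1 and Th17 cells. Among the AHR targets only 4 of 8 were tested. All 4 were higher in Th2 than in naive cells (median 2.33, all genes -0.11), beside 31.8% of all genes. *Tiparp*, a negative regulator of AHR, averaged 26.6 ± 8.20 FPKM in Th2 cells, where *Ahr* was highest, and 4.90 in Th1 and 7.18 in Th17 cells, with differences from Th2 cells of -2.19 (adjusted p = 0.000348) and -1.72 (adjusted p = 0.00135). *Il22*, also on this list, was highest in Th17 cells. Among the targets too low to be tested, *Ahrr*, *Cyp1a1* and *Nqo1* were highest in Th17 cells, at 1.07, 0.239 and 0.783 FPKM. *Cyp1b1* was highest in Th2 cells, at 0.321 FPKM.

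Follicular helper genes of the BCL6 program were mixed. Of 8 tested of 10, 6 were higher and 2 lower in Th17 than in Th2 cells (median 0.90, all genes 0.18), and against naive cells 3, 4 and 5 were higher and 3, 3 and 2 lower in Th1, Th2 and Th17 cells (medians -0.14, 0.21 and 0.50). *Cd200* averaged 42.2 FPKM in Th17, 11.4 in Th1, 4.59 in Th2 and 2.38 in naive cells, and *Btla* 25.9 in Th17, 12.8 in Th1, 5.37 in Th2 and 20.4 in naive cells. *Icos*, a costimulatory receptor that activation induces, rose in all 3 subsets, by 5.41, 5.80 and 5.23 in Th1, Th2 and Th17 cells, and *Slamf6* fell in all 3, with differences of -2.45, -3.47 and -3.02. Of the 9 genes that BCL6 is known to repress, *Prdm1* among them, 5, 3 and 5 were higher and 3, 5 and 2 lower than in naive cells in Th1, Th2 and Th17 cells (medians 0.86, -0.37 and 0.45). Against naive cells, the shares of all genes were 33.8%, 31.8% and 37.5% higher and 33.5%, 38.7% and 29.8% lower. The medians of all genes were -0.01, -0.11 and 0.08. For Th17 against Th2 cells the shares of all genes were 31.7% higher and 12% lower. *Id2* stood at 343, 363 and 330 FPKM in Th1, Th2 and Th17 cells against 23.2 in naive cells, whereas *Klf2* and *S1pr1*, which keep naive cells circulating, fell in all 3. *Ccr6*, a Th17 homing receptor, was at 7.63 FPKM in Th17 cells and at most 0.790 elsewhere.

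Of the 7 tested of 9 genes that BLIMP-1 is known to repress, *Bcl6* among them, 3, 5 and 2 were lower than in naive cells in Th1, Th2 and Th17 cells, and 2, 1 and 2 were higher (medians -0.40, -1.92 and -0.41). The shares of all genes were 33.5%, 38.7% and 29.8% lower and 33.8%, 31.8% and 37.5% higher, with medians of -0.01, -0.11 and 0.08. *Cxcr5*, on this list too, passed the filter on low values only through the Th17 libraries. *Tcf7*, which encodes the naive and memory factor TCF-1, fell from 738 FPKM in naive cells to 59.2 in Th17, 11.1 in Th2 and 6.56 in Th1 cells, with differences of -3.63, -5.98 and -6.62, and was 2.35 higher in Th17 than in Th2 cells (adjusted p = 0.000648). *Ccr7* was at 318 FPKM in naive cells and at 38.8, 71.6 and 155 in Th1, Th2 and Th17 cells. *Prdm1* itself was lowest in Th17 cells among the subsets. *Myc*, which drives growth, went the other way, at 32.5 FPKM in naive and 222, 76.7 and 153 in Th1, Th2 and Th17 cells.

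Most genes of the Foxp3 program were higher in effector cells, where *Foxp3* was lower. All 11 were tested, and 8 were higher in each of Th1, Th2 and Th17 cells than in naive cells, beside 33.8%, 31.8% and 37.5% of all genes. The medians were 2.06, 2.57 and 2.30, beside -0.01, -0.11 and 0.08 over all genes. *Il2ra*, the IL-2 receptor chain that activated T cells also express, averaged 608, 716 and 843 FPKM in Th1, Th2 and Th17 cells against 5.11 in naive cells. *Folr4* and *Gpr83* were the 2 that fell in Th1 cells, to 9.23 and 0.219 FPKM from 37.3 and 4.31, and *Ikzf2* and *Nrp1* the 2 that fell in Th2 cells, to 0.247 and 0.418 FPKM from 2.04 and 1.18. In Th17 cells none fell and 3 did not pass. *Ikzf2* encodes Helios, and *Nrp1* neuropilin-1, both markers of thymic regulatory T cells.

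Among other transcription factors that act with the 9, 33 of 37 were tested, and 12, 14 and 15 were higher and 12, 14 and 11 lower than in naive cells in Th1, Th2 and Th17 cells (medians 0.05, -0.19 and -0.09). Of all genes, 33.8%, 31.8% and 37.5% were higher and 33.5%, 38.7% and 29.8% lower. *Bhlhe40*, *Nfil3* and *Irf4*, which TCR signals induce, stood at 0.820, 0.832 and 1.88 FPKM in naive cells. They reached 167, 124 and 113 FPKM in Th1 cells, 94.3, 250 and 184 in Th2 cells and 193, 90.9 and 165 in Th17 cells. Between subsets, *Batf*, the AP-1 partner of IRF4, was highest in Th2 cells at 355 ± 1.46 FPKM, with 41.2 in Th1 and 94.4 in Th17 cells, differences from Th2 cells of -3.08 (adjusted p = 2.88e-06) and -1.90 (adjusted p = 2.97e-05). *Zbtb32* and *Hopx* were highest in Th1 cells, at 79.5 and 30.0 FPKM against 4.28 and 1.50 in Th2 and 32.3 and 3.34 in Th17 cells. For Th1 against Th2 cells 10 were higher and 12 lower, for Th17 against Th2 cells 11 and 6, and for Th1 against Th17 cells 5 and 9. In the same order, the shares of all genes were 27.4% and 16.9%, 31.7% and 12%, and 9.17% and 16%.

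The genes whose pattern over the 8 libraries was most like that of each factor were found by Pearson's r on log2(FPKM + 1) over all tested genes, as a description, since the libraries fall into 4 groups and share their depth with both genes. For *Tbx21* they were *Cdkn2b* (r = 0.998), *Rassf4* (r = 0.997) and *Pilrb1* (r = 0.995), and for *Gata3* *Aff4* (r = 0.992), *BC017643* (r = 0.982) and *Clcc1* (r = 0.982). For *Rora* they were *Fam38a*, *6430598A04Rik* and *Mtap4*, for *Foxp3* *Smarcd1*, *Anapc7* and *Plekhm2*, and for *Bcl6* *Tyw1*, *Qrich1* and *Tcea2*, all with r of at least 0.989. For *Maf* they were *Xpr1*, *Rimkla* and *Piga*, for *Ahr* *Sec23a*, *Pfkfb3* and *Rnd3*, and for *Prdm1* *Ffar2*, *Gm5547* and *Aqp9*, with r between 0.981 and 0.990.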

How the data were processed

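Naive CD4 T cells and Th1, Th2 and Th17 effector cells were compared by RNA sequencing, with 2 libraries a group as labelled. The authors aligned 50-base reads to mm10 with Bowtie 0.12.8 and TopHat 1.3.2 and ran Cufflinks 2.0.2, and they deposited for each library a table of FPKM per gene, its confidence interval and a status flag. Their gene annotation is not given in the sources used here. All 72 values of the 9 genes had the status OK. The labels name a stranded kit and the methods one without strand, so genes that overlap on opposite strands may share reads.

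Rows of 1 symbol were summed. Genes averaging 1 FPKM or more were tested on log2(FPKM + 1) with limma 3.58.1 in R 4.3.3 (4 group means over all 8 libraries, eBayes with a trend, two-sided, Benjamini-Hochberg over 11198 genes, threshold 0.05). Tables and figures were made with Python 3.11.15, pandas 2.3.3, numpy 2.4.6 and matplotlib 3.10.9. The script was tested on simulated data. Fragment numbers were inferred from the width of the confidence intervals, taken as counting error alone. Nothing says that the 2 libraries of a group came from separate animals, so p-values measure the spread between libraries, which may be technical, and an SD of 2 values is rough. Promoter letters came from RefSeq (GRCm38.p6), with entries for 7 of 9 genes.

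Replicate numbers in the labels were taken as pairing the libraries, because same-numbered libraries deviated together from their group means in every pair of groups (r from 0.138 to 0.294 across tested genes). The main fit, its adjusted p-values and the shares of all genes leave this pairing out, and it entered only as the block of another fit. With the block, genes changed rose from 4961 to 5983 for Th1 against Th2 cells and from 2815 to 3711 for Th1 against Th17 cells. They rose in the other comparisons too. A shared culture day is not stated. The block is given where it changed a call.

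The 9 genes were named in every comparison. From each list of targets or partners, up to 4 genes a comparison with the largest difference past the threshold could be named, and any needed to account for a count of 5 or fewer. The 3 most alike genes by Pearson's r were named for each tested factor. Cell type markers were named by their range and highest members. The genes and lists were chosen with earlier results of these data known. Some genes of the lists are not reported here. Alternatives were another pseudocount, other filters, median scaling, quantile normalization, fits of only 2 groups, no trend, the block, the highest row for a symbol, voom on the implied fragments, and each library left out.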

Additional observations from a re-analysis of the deposited data

Results flagged for a closer look

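For each of the 8 tested factor genes, the change from naive cells differed between subsets by a test of the difference itself, which is the limma comparison of the subsets. The widest such difference of *Tbx21* was 4.67 between Th1 and Th2 cells, of *Gata3* -4.11 between Th1 and Th2 cells, and of *Maf* -3.56 between Th17 and Th2 cells. For *Rora*, *Foxp3* and *Bcl6* it was 1.75, 1.82 and 1.50 between Th17 and Th2 cells, for *Ahr* -1.40 between Th1 and Th2 cells and for *Prdm1* 2.49 between Th1 and Th17 cells. Each value is on the log2(FPKM + 1) scale, the group named first minus the other. Only differences past the threshold were taken, so passing it was a condition of being listed. *Tbx21* and *Ahr* were also tested only because of their levels in Th1 and Th2 cells, respectively, so their entries are a description. Of all genes tested, 44.3% passed for Th1 against Th2, 43.6% for Th17 against Th2 and 25.1% for Th1 against Th17 cells. With 2 libraries a group, no library could be tested as an outlier of its group.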

How the results depend on the processing

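Direction was compared only where a value passed the threshold in the main or the other fit. A change of sign between values short of it therefore counted as kept. Across all fits, *Ahr* in Th1 against naive cells ranged from -0.27 to 0.14, and *Gata3* in Th1 against Th17 cells from -0.42 to 0.16. Of 480 values of the 8 tested factor genes under other settings, 462 kept their direction and side of the threshold in this sense, 7 lost the call, 10 gained it and 1 reversed, namely *Prdm1* in Th17 against naive cells at -0.0455 with quantile normalization. With each library left out, 357 of 384 values kept both, 21 lost the call and 6 gained it. A group left with 1 library was assumed to vary like the others. Of 3870 values of other named genes, 3846 kept both, 23 lost the call and 1 reversed, *Cxcr5* in Th17 against naive cells at -0.0127 with quantile normalization. The replicate block added calls for *Rora* (adjusted p = 0.00923, 0.00453 and 0.00246) and *Bcl6* (adjusted p = 0.0403 and 0.0446) and changed no other call of the 8. *Eomes* was fitted without the filter only, with no further alternative. The numbers of genes changed with a library left out ranged from 3106 to 4936 for Th1 against Th2 cells (4961 with all), from 2738 to 4876 for Th17 against Th2 cells (4885) and from 1558 to 2759 for Th1 against Th17 cells (2815). The cause was not tested. The median over all genes was -0.11 for Th2 against naive cells, 0.11 for Th1 against Th2 and 0.18 for Th17 against Th2 cells as deposited, and 0.07, 0.0016 and 0.0056 after median scaling. Depth limits *Eomes*, whose values rest on 2.3 to 109.0 implied fragments a library.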
